A study of Homo sapiens with 8 samples.

Results

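Histone variants whose genes are expressed outside DNA replication were followed in cells treated with sodium benzoate (SB). The genes were taken from a fixed list of older gene symbols, and those with a row among the 14526 genes of the authors' expression table gave the 8 genes described here, H1FX, H2AFZ, H2AFV, H2AFX, H2AFY, H2AFY2, H2AFJ and H3F3B. H3F3A was not analysed here. Total RNA came from 4 control cultures grown in DMEM with fetal bovine serum and from 4 cultures that also received 10 mM SB for 24 h, described by the study as biological replicates. The samples are labelled HepG2, a human line of hepatic tumour origin, so each value describes 1 cell line. The values are RPKM, which are read counts divided by gene length and by a scaled library size. Levels compared between genes therefore rest on the length used for each gene.

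Most histones are made from clustered genes that are switched on in S phase and whose mRNAs end in a stem-loop instead of a poly(A) tail. The variant genes studied here lie outside those clusters, and as a group they give polyadenylated mRNAs and supply histones throughout the cell cycle and in cells that no longer divide, although H2AFX is known to give a stem-loop mRNA in S phase as well. H1X is a linker histone, which binds the DNA between nucleosomes. H2A.Z, H2A.X, macroH2A and H2A.J replace canonical H2A, and H3.3 replaces canonical H3, each with its own chaperones or remodelling complexes. SB was used in the study to raise benzoylation of histone lysines, so the supply of the histones themselves is of interest beside that mark.

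Of the 8 variant genes, 6 fell and 1 rose after SB at an adjusted p below 0.05 in limma, and 1 did not pass the test. H2AFY2, H2AFY, H1FX and H3F3B fell by 20.9% (H3F3B) to 25.9% (H2AFY2). H2AFJ fell by 16.3% from a very low level. H2AFZ fell by 6.56%. That call was lost without the library scaling factors and turned after a correction for GC content and length, as given below. H2AFX was the gene that rose, by 15.8%. H2AFV did not pass the test. Among all genes of the table, 32.6% were called lower and 33% higher, so a call by itself was common in this comparison. The median log2 fold change of the 8 variants was -0.25, beside 0.0045 for all genes. Without control replicate 1, which stood apart as described below, 1 variant was again called higher and 6 lower.

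The 8 libraries held between 36964791 and 44846247 recovered reads on the genes of the table. Control replicate 1 stood apart from the other controls, with a chi-square per degree of freedom of 33.4 to 38.4 against them, whereas all other pairs within a group gave 1.52 to 3.80. GC content of the transcripts accounted for 50.8% of the variance of its log2 difference from the other controls. The value for control replicate 2 was 33.4%, but the controls it was compared with included control replicate 1. Results are therefore also given without control replicate 1 for several variants and for the counts in the gene lists. For most named partner genes no value from that fit is given. The library scaling factors recovered from the values were below 1 in the controls and above 1 in the SB-treated libraries. Removing them shifted the median log2 ratio of all genes from 0.00772 to 0.113. They were computed against the recovered reads on the genes of the table. They match the authors' TMM factors only if the authors' library sizes were those totals. Fits without the scaling or TMM factors used these totals. Of 20 hepatocyte markers, 3 had a row (TF, CYP2E1 and CPS1). Their summed level was 6.66 to 7.40 RPKM in the controls and 12.0 to 12.2 RPKM in the SB-treated libraries. Most of it came from CPS1, with a control mean of 6.57 RPKM, beside 0.192 RPKM for TF and 0.188 RPKM for CYP2E1. ALB, AFP, APOA1, APOB, TTR, SERPINA1 and HNF4A had no row in the table as analysed here, so the labelled cell line could not be checked against these defining markers. Markers of other cell types had summed levels of 6.13 to 8.32 RPKM in controls and 6.07 to 6.29 RPKM after SB for 3 of 6 fibroblast genes, 0.268 to 0.348 and 0.113 to 0.185 RPKM for 1 of 6 endothelial genes, and 3.28 to 3.77 and 3.35 to 4.14 RPKM for 3 of 6 immune genes. Their part in the results was not tested. In these bulk samples, fewer cells expressing a gene and less RNA per cell cannot be told apart.

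Promoter sequences are shown first, so that the responses below can be read beside the start sites of the genes. RefSeq promoter windows (GRCh38.p14, from 250 bases before to 50 bases after the transcription start) were matched for all 8 genes. For H2AFY, H2AFY2 and H3F3B the window lies wholly inside the gene span given below. Sequence upstream of the outer start of these spans was therefore not searched. The windows below run 5′ to 3′ along the gene's own strand. Capitals mark the motifs CCAAT, known as the CCAAT box, TATAAA, known as the TATA box, and GGGCGG, known as the GC box, each searched on both strands, so that CCAAT on the other strand reads ATTGG. The H2AFZ and H2AFV windows are given because both genes encode H2A.Z, H2AFX because it was called higher, and H2AFY2 because none of these motifs was found in its window. They lie on the minus strand at chr4:99950226-99950525, chr7:44848038-44848337 and chr11:119095416-119095715 for the first 3, and on the plus strand at chr10:70052596-70052895 for H2AFY2.
H2AFZ: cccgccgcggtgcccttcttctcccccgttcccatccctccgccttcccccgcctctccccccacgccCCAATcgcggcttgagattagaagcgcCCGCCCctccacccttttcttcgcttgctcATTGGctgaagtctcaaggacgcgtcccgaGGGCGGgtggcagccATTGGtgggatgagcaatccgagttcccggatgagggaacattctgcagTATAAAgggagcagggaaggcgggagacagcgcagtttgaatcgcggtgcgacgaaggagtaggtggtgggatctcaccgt
H2AFV: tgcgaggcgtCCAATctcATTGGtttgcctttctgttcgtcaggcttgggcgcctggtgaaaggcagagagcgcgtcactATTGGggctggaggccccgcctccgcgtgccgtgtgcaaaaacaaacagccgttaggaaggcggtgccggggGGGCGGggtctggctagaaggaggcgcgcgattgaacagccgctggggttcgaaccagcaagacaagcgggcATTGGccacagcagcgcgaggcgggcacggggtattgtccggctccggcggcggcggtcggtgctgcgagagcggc
H2AFX: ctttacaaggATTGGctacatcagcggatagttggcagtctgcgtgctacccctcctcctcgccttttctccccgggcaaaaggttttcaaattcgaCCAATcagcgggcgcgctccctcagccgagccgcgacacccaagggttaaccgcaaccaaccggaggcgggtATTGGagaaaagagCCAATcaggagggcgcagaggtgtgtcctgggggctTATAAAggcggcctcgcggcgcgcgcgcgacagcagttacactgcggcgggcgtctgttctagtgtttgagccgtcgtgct
H2AFY2: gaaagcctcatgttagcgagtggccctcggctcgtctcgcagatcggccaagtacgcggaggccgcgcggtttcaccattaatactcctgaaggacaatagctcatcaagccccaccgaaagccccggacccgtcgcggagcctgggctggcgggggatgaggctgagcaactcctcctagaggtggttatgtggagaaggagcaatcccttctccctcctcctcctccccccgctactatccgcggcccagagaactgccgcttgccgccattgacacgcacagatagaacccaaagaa

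CCAAT was found in 5 of the 8 windows, against 34.6% of 35116 promoter windows of the same length. H2AFV, H2AFX and H3F3B each held 4 copies, and H2AFZ and H2AFJ each held 3. TATAAA was found in 4 of 8 windows, against 11.5% of all promoters, at position -31 in H1FX, H2AFX and H2AFZ and at -29 in H3F3B. GGGCGG was found in 4 of 8 windows against 45.0% of all promoters. AAACACA, the AC box of H1 promoters, and the CRE motif TGACGTCA, present in 5.64% and 1.85% of all promoters, were found in no window of the variant genes. H2AFX, H2AFZ and H3F3B thus shared TATAAA together with several CCAAT copies, while their responses were a call higher, a small call lower that several alternatives did not keep, and a clear call lower. These matches describe letters in the windows and were not tested for any effect.

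**Figure D1:**
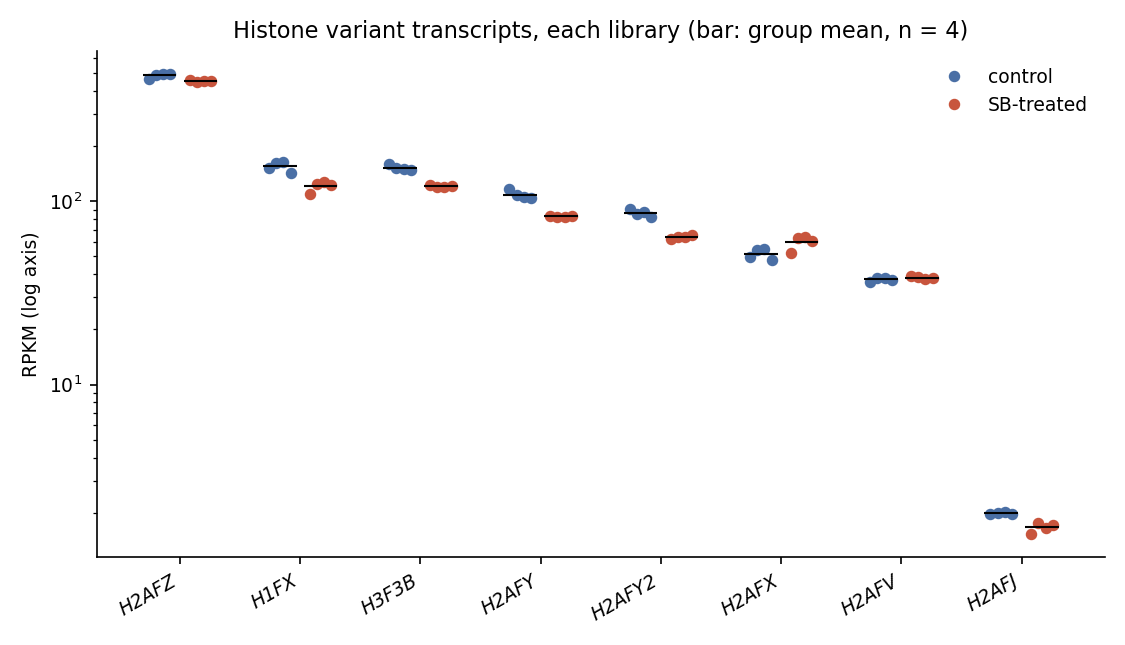
RPKM on a log axis for each variant gene in the 4 control and 4 SB-treated libraries, with 1 point per library and a bar at the group mean. H2AFY drops from 104 to 116 RPKM in the controls to 82.1 to 82.9 RPKM after SB, while the points of H2AFV lie between 36.1 and 38.9 RPKM in both groups.

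The linker histone gene was considered first. H1FX encodes H1X, a divergent linker histone, from a single exon at chr3:129314771-129316286 on the minus strand. The controls had 152, 161, 164 and 142 RPKM, and the treated libraries 109, 125, 128 and 123 RPKM. The groups did not overlap, with control replicate 4 and SB-treated replicate 1 the lowest of their groups. The mean went from 155 ± 9.83 to 121 ± 8.28 RPKM (SD, n = 4), which is a log2 fold change of -0.35 (SE 0.061, adjusted p = 0.000699, limma). The transcript is GC rich, at 68.6% GC, and a correction for GC content and length kept the estimate at -0.35 and lowered its SE to 0.038. A noncoding gene on the opposite strand, H1FX-AS1, had 2.50 ± 0.121 RPKM in controls and 2.66 ± 0.224 RPKM after SB (adjusted p = 0.278, limma), far below the level of H1FX.

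H2AFZ and H2AFV encode the closely similar forms of H2A.Z, a variant placed around transcription starts and at regulatory elements. H2AFZ, with 5 exons at chr4:99948086-99950355 on the minus strand, had 462, 488, 495 and 492 RPKM in the controls and 459, 448, 452 and 450 RPKM after SB. The groups just failed to overlap, control replicate 1 being nearest to the treated libraries. The mean moved from 484 ± 15.2 to 452 ± 4.85 RPKM (SD, n = 4), which is a log2 fold change of -0.10 (SE 0.034, adjusted p = 0.0309, limma). Without control replicate 1 the log2 fold change was -0.12 (adjusted p = 0.00123). This call was fragile in other respects. The log2 fold change was 0.00792 (adjusted p = 0.858, limma) without the library scaling factors, whose removal also shifts the median of all genes as given above. It was 0.10 in the opposite direction (adjusted p = 0.00534, limma) after correction for GC content and length. The call also missed the threshold without control replicate 2, 3 or 4 or without SB-treated replicate 2, 3 or 4. In these fits the log2 fold changes lay between -0.10 and -0.09, with adjusted p between 0.0700 and 0.0760 (limma).

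H2AFV, with 5 exons at chr7:44826791-44848087 on the minus strand, had 36.1, 38.4, 38.4 and 37.0 RPKM in the controls and 38.9, 38.5, 37.5 and 38.2 RPKM after SB. The groups overlapped. The means were 37.5 ± 1.09 and 38.3 ± 0.603 RPKM (SD, n = 4), a log2 difference of 0.03 with a 95% interval from -0.05 to 0.11 (adjusted p = 0.435, limma). Without the scaling factors it passed the test at 0.13 (adjusted p = 0.00707). By RPKM, H2AFZ exceeded H2AFV by a ratio of 12.9 ± 0.272 in the controls and 11.8 ± 0.172 after SB. No treated library reached the lowest control. The size of this ratio rests on the lengths behind the values, 948 bases for H2AFZ and 4710 bases for H2AFV. Mean reads in the controls were 18147.5 and 6973. The difference in the log2 ratio was -0.13 (exact permutation test, two-sided, p = 0.0286, the smallest that 4 against 4 allows), which did not pass after Benjamini-Hochberg adjustment over the 2 ratios tested (0.0571). A ratio within a library does not depend on how libraries are scaled, but this one turned to 0.10 (p = 0.0571, exact) after correction for GC content and length, where the transcripts have 49.1% and 43.1% GC.

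H2AFX encodes H2A.X, the variant that is phosphorylated around DNA double-strand breaks, from a single exon at chr11:119093874-119095465 on the minus strand. It had 49.9, 53.9, 55.1 and 47.6 RPKM in the controls and 52.2, 62.6, 63.8 and 60.4 RPKM after SB. SB-treated replicate 1 lay within the control range and the other treated libraries above it. The mean rose from 51.6 ± 3.47 to 59.8 ± 5.25 RPKM (SD, n = 4), which is a log2 fold change of 0.21 (SE 0.070, 95% interval 0.05 to 0.36, adjusted p = 0.0260, limma). H2AFX shares with H1FX a high GC content, of 66.8%, and the same pair of low libraries, control replicate 4 and SB-treated replicate 1. After correction for GC content and length its log2 fold change was 0.21 with an SE of 0.045. The call was lost without control replicate 4 (0.17) and without SB-treated replicate 2 (0.18), 3 (0.17) or 4 (0.20), with adjusted p between 0.0605 and 0.0761. It was 0.19 without control replicate 1 (adjusted p = 0.0393) and 0.27 without SB-treated replicate 1 (adjusted p = 0.00359).

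The macroH2A genes, whose products carry a large macro domain and are abundant on silenced chromatin, fell together. H2AFY, which encodes macroH2A1 from 9 exons at chr5:135334381-135399914 on the minus strand, had 116, 107, 106 and 104 RPKM in the controls and 82.9, 82.4, 82.1 and 82.9 RPKM after SB. The treated libraries were almost identical and all below the controls. The mean went from 108 ± 5.35 to 82.6 ± 0.353 RPKM (SD, n = 4), which is a log2 fold change of -0.39 (SE 0.040, adjusted p = 2.37e-05, limma). Control replicate 1 was the highest, and without it the log2 fold change was -0.35. The value was -0.27 with GC content and length corrected and -0.28 without the scaling factors. H2AFY2, which encodes macroH2A2 from 9 exons at chr10:70052544-70112282 on the plus strand, had 90.1, 84.7, 87.8 and 81.7 RPKM in the controls and 62.4, 63.8, 63.9 and 65.1 RPKM after SB. Here too the groups were well apart. The mean went from 86.1 ± 3.66 to 63.8 ± 1.11 RPKM (SD, n = 4), which is a log2 fold change of -0.43 (SE 0.039, adjusted p = 1.12e-05, limma).

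The ratio of H2AFY to H2AFY2 was 1.26 ± 0.0386 in the controls and 1.29 ± 0.0237 after SB, a log2 difference of 0.04 (exact permutation test, two-sided, p = 0.171, also 0.171 after adjustment over the 2 ratios). With GC content and length corrected the log2 difference was 0.10 (p = 0.0286, exact, not adjusted over the 2 ratios). AIFM2 overlaps H2AFY2 on the opposite strand and rose from 0.466 ± 0.0861 to 1.39 ± 0.0171 RPKM (log2 fold change 0.70, adjusted p = 1.34e-06, limma). Its level was far below that of H2AFY2 and moved the other way. Whether the authors counted reads by strand is not given in the sources used here.

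**Figure D2:**
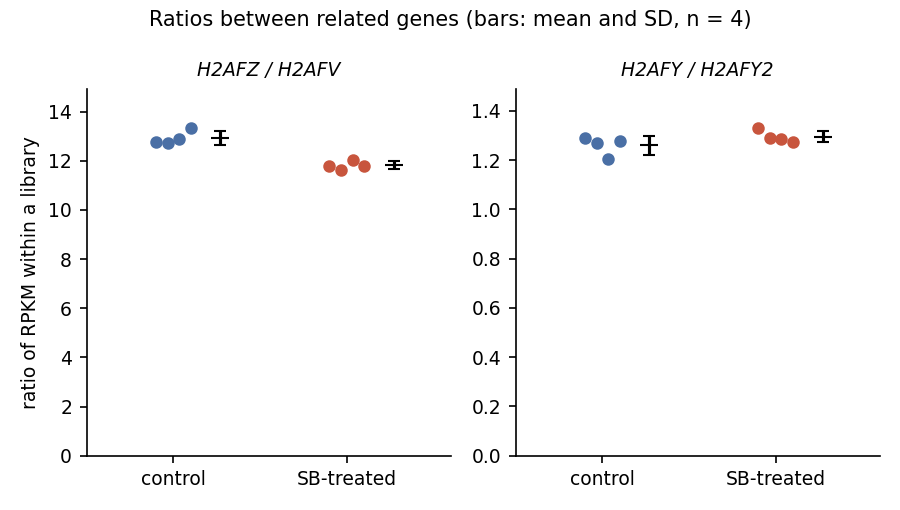
Ratio of RPKM within each library for the gene pairs that encode related variants, with 1 point per library and a bar for mean and SD (n = 4). The H2AFZ to H2AFV ratios lie between 12.7 and 13.3 in the controls and between 11.6 and 12.05 after SB, whereas the H2AFY to H2AFY2 ratios of the groups overlap.

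H2AFJ encodes H2A.J, a variant known to accumulate in senescent cells, at chr12:14774405-14778002 on the plus strand. It was by far the lowest of the variants, at 1.98, 2.01, 2.02 and 1.96 RPKM in the controls and 1.54, 1.76, 1.66 and 1.71 RPKM after SB, which corresponds to 217 to 309 reads per library. The groups did not overlap. The mean went from 1.99 ± 0.0250 to 1.67 ± 0.0931 RPKM (SD, n = 4), which is a log2 fold change of -0.17 on the log2(RPKM + 1) scale (SE 0.035, adjusted p = 0.00234, limma). That scale understates changes of low genes, and with a pseudocount of 0.1 the value was -0.24. Other settings gave smaller falls, -0.10 without the scaling factors (adjusted p = 0.0344, limma) and -0.14 with GC content and length corrected (adjusted p = 0.0185, limma).

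H3F3B encodes H3.3, the H3 variant deposited at active genes, telomeres and pericentromeres, and has 4 exons at chr17:75776434-75785893 on the minus strand. The controls had 159, 151, 151 and 148 RPKM, and the treated libraries 123, 119, 119 and 121 RPKM. The groups were clearly apart. The mean went from 152 ± 4.99 to 120 ± 1.68 RPKM (SD, n = 4), which is a log2 fold change of -0.34 (SE 0.035, adjusted p = 2.58e-05, limma). The opposite-strand neighbour UNK, whose annotation overlaps the H3F3B locus, had 12.2 ± 0.515 and 12.3 ± 0.240 RPKM (adjusted p = 0.823, limma). Processed copies of H2AFZ and H3F3B exist elsewhere in the genome, and how reads shared with such copies were counted is not given in the sources used here.

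**Figure D3:**
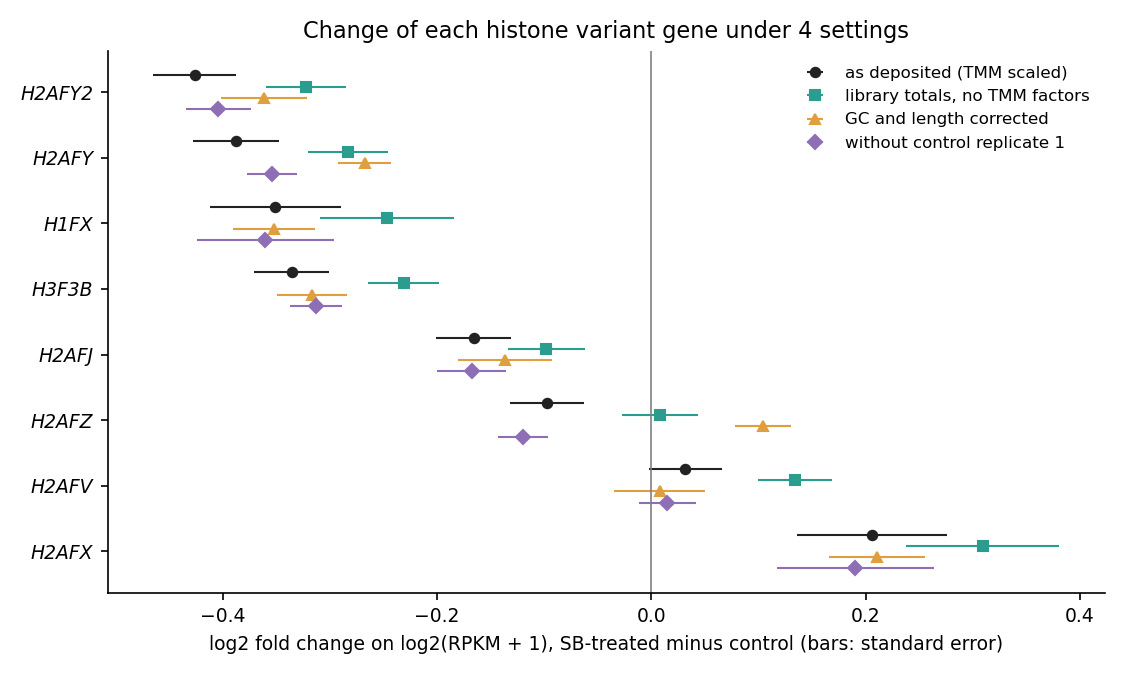
Log2 fold change of each variant gene (SB-treated minus control, on log2(RPKM + 1)) with its standard error, as deposited, without the scaling factors, with GC content and length corrected, and without control replicate 1. H2AFY2 stays between -0.43 and -0.32 in these fits, whereas H2AFZ lies at -0.10, 0.01, 0.10 and -0.12.

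Across these genes, the 4 control and 4 treated values did not overlap for 6 genes, all lower after SB, while H2AFX and H2AFV overlapped. Among all genes of the table, 30.5% were lower and 31% higher without overlap. H1FX, H2AFY, H2AFY2, H2AFJ and H3F3B kept their direction and an adjusted p below 0.05 in all 15 alternative fits. How many of all genes did so is not given here. The summed level of the 8 variants went from 1077 ± 19.1 to 940.1 ± 7.89 RPKM (SD, n = 4), a decrease of 137 RPKM. As a share of the recovered reads on the genes of the table, these variants took 0.175% ± 0.00317 in the controls and 0.161% ± 0.0016 after SB. This share does not use the scaling factors.

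The makeup of the variant mRNA pool changed with it. H2AFZ supplied 45.0% ± 1.38 of the summed RPKM in the controls and 48.1% ± 0.877 after SB. The share of H2AFX went from 4.79% ± 0.239 to 6.35% ± 0.511 and that of H2AFV from 3.48% ± 0.0635 to 4.07% ± 0.0961 (SD, n = 4), while H2AFY went from 10.1% ± 0.560 to 8.78% ± 0.105 and H2AFY2 from 7.99% ± 0.317 to 6.78% ± 0.0886. These shares are linked, since a fall of 1 gene raises the share of the others. In the controls the order by RPKM was H2AFZ, H1FX, H3F3B, H2AFY, H2AFY2, H2AFX, H2AFV and H2AFJ, where H1FX and H3F3B could not be separated by their values and all other neighbours could. After SB the order was the same, H1FX and H3F3B again overlapped, and H2AFY2 and H2AFX now overlapped as well.

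For comparison, 11 genes with a row were taken as replication-dependent histone genes by their HIST symbols alone. Whether each gives a functional histone was not checked. Of these, 4 rose (HIST1H2BK, HIST2H2BC, HIST1H3E and HIST1H1D), 3 fell (HIST1H1E, HIST1H2BJ and HIST2H2BE) and 4 did not pass the test. Their median log2 fold change was 0.11. Beside this list and the lists below, 33% of all genes were called higher and 32.6% lower. With GC content and length corrected, 6 rose and 2 fell, with a median of 0.39. The summed level of these 11 genes was 72.1 ± 2.79 RPKM in the controls and 80.05 ± 4.22 RPKM after SB, far below that of the variants. Histone genes without a row are not in this sum, so it does not give the level of all replication-dependent histone mRNA. HIST1H2BK, the highest of them, rose from 31.0 ± 1.57 to 37.1 ± 1.06 RPKM (log2 fold change 0.25, adjusted p = 0.000602, limma). HIST2H2BC rose from 4.24 ± 0.590 to 7.38 ± 0.590 RPKM (0.68) and HIST1H3E from 1.44 ± 0.241 to 2.60 ± 0.562 RPKM (0.55). HIST1H1E, which encodes the linker histone H1.4, fell from 2.88 ± 0.353 to 1.07 ± 0.324 RPKM (-0.91, adjusted p = 4.71e-05, limma), and HIST1H2BJ fell from 2.70 ± 0.508 to 1.5 ± 0.145 RPKM (-0.56). HIST1H1C, which encodes H1.2, had 12.8 ± 0.607 and 12.1 ± 1.10 RPKM (-0.07, adjusted p = 0.321, limma), and HIST3H2A 10.4 ± 1.87 and 10.2 ± 1.58 RPKM (-0.02, adjusted p = 0.917). Neither of these last genes passed the test, and the sign of HIST1H1C turned in 3 and that of HIST3H2A in 6 of the 15 alternative fits. Among the other histone variants listed, CENPA, the centromeric H3, was the 1 of 10 with a row, at 14.7 ± 1.75 and 15.9 ± 0.532 RPKM (0.11, adjusted p = 0.181, limma). CENPA was called higher without the scaling factors (0.21), with GC content and length corrected (0.28) and without control replicate 1 (0.19).

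The factors that deposit H3.3 were examined beside H3F3B. Of 8 such genes, 5 rose (HIRA, UBN1, UBN2, CABIN1 and ATRX), 1 fell (ASF1A) and DAXX and ASF1B did not pass the test. Their median log2 fold change was 0.21. Among all genes of the table, 33% were called higher and 32.6% lower. UBN1 and UBN2, subunits of the HIRA complex, rose from 15.8 ± 0.934 to 20.6 ± 0.391 RPKM (0.36, adjusted p = 7.68e-05, limma) and from 7.48 ± 0.330 to 10.4 ± 0.387 RPKM (0.42, adjusted p = 1.77e-05). ASF1A, which hands H3 and H4 to HIRA, fell from 19.7 ± 2.69 to 14.2 ± 0.253 RPKM (-0.44, adjusted p = 0.000666). Its control replicate 1 had 23.7 RPKM and the other controls 17.9 to 18.8 RPKM. The ASF1A log2 fold change lay between -0.48 and -0.32 in the 15 alternative fits. With GC content and length corrected, 4 of the 8 rose and 2 fell, with a median of 0.09. In that fit 4723 of 14090 genes were called higher and 5268 lower. Without the scaling factors 7 rose and 1 fell, with a median of 0.31, where 6253 of 14526 genes were called higher and 3355 lower.

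Among 11 genes for H2A.Z exchange, 3 rose (SRCAP, EP400 and DMAP1), 7 fell and ZNHIT1 did not pass the test, with a median log2 fold change of -0.29. SRCAP, the ATPase that inserts H2A.Z, rose from 31.9 ± 3.46 to 41.3 ± 1.01 RPKM (0.37, adjusted p = 0.00128, limma). EP400, a related ATPase, also rose, whereas INO80, the ATPase of another complex, fell. Among the subunits of the SRCAP complex, VPS72, which binds H2A.Z, fell from 56.5 ± 0.874 to 39.0 ± 0.530 RPKM (-0.52, adjusted p = 1.08e-06), and ACTR6 fell from 20.2 ± 2.87 to 13.2 ± 0.394 RPKM (-0.57). RUVBL1, an AAA+ ATPase shared by several complexes, fell from 132 ± 3.56 to 90.4 ± 0.934 RPKM (-0.55, adjusted p = 1.18e-06). ANP32E, a chaperone that removes H2A.Z, fell from 99.95 ± 14.2 to 77.5 ± 3.21 RPKM (-0.35, adjusted p = 0.00499). YEATS4 fell from 54.0 ± 9.21 to 42.8 ± 1.5 RPKM (-0.31, adjusted p = 0.0161) and lost its call without the scaling factors and with GC content and length corrected.

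Of 14 general histone chaperones and importers, 12 fell, none rose, and CHAF1A and NAP1L1 did not pass the test, with a median of -0.25. NPM1, an abundant nucleolar chaperone, fell from 1392 ± 213 to 932 ± 28.6 RPKM (-0.57, adjusted p = 0.000361, limma). Its control replicate 1 had 1707 RPKM and the other controls 1256 to 1329 RPKM. The NPM1 log2 fold change lay between -0.61 and -0.38 in the 15 alternative fits. SET fell from 346 ± 32.5 to 238 ± 5.30 RPKM (-0.54), SUPT16H, a subunit of FACT, from 132 ± 8.20 to 96.9 ± 1.55 RPKM (-0.44), and RBBP7 from 194 ± 10.9 to 145 ± 0.976 RPKM (-0.42). The histone importer IPO4 fell by 0.30 on the log2 scale, as did HJURP, the chaperone of CENPA. Without the scaling factors 8 of the 14 were lower and none was higher.

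Of 13 genes that act on histone transcription or the 3′ ends of replication-dependent histone mRNAs, 2 rose (LSM11 and ZNF473), 8 fell and 3 (NPAT, CASP8AP2 and SYMPK) did not pass the test, with a median of -0.16. NCBP2, a cap-binding subunit, fell from 33.7 ± 3.53 to 23.4 ± 1.05 RPKM (-0.51, adjusted p = 0.000128, limma). The cleavage factor subunits CPSF3 and CPSF2 fell from 66.7 ± 1.55 to 47.6 ± 1.44 RPKM (-0.48) and from 47.7 ± 4.37 to 38.0 ± 0.972 RPKM (-0.32). Without the scaling factors 2 rose and 4 fell, and with GC content and length corrected 0 rose and 9 fell. Of 15 genes that mark cycling cells, 3 rose (MKI67, CCNE2 and CCNB1), 8 fell (MCM2, MCM4, MCM5, MCM6, PCNA, CCNA2, TOP2A and TYMS) and 4 did not pass the test, with a median of -0.10 as deposited and 0.0027 without the scaling factors. Their part in the changes of the variant genes was not tested. Without control replicate 1, the counts of genes that rose and fell were 5 and 1 for H3.3 deposition, 3 and 8 for H2A.Z exchange, 0 and 12 for general chaperones, 2 and 9 for histone mRNA processing, 3 and 10 for cycling genes, and 5 and 3 for replication-dependent histone genes. In that fit 5459 of 14526 genes were called higher and 5511 lower.

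**Figure D4:**
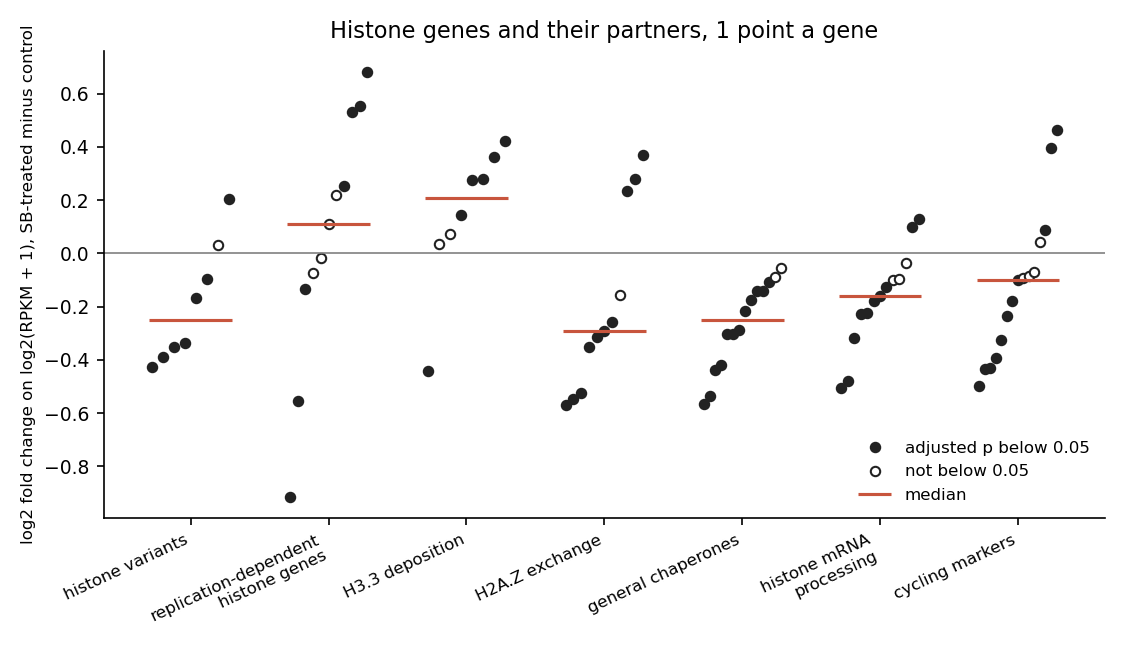
Log2 fold change of every gene with a row in each list (SB-treated minus control, on log2(RPKM + 1)), filled where the adjusted p is below 0.05 in limma, with a bar at the list median. The medians are -0.25 for the variants, 0.21 for H3.3 deposition and -0.25 for general chaperones, and no general chaperone lies above 0.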

How the data were processed

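RNA was sequenced by the authors from 4 control and 4 SB-treated cultures, with stranded total RNA libraries and 50 bp single reads. The authors mapped reads to hg38 with TopHat2 2.1.0, counted them per gene with featureCounts 1.5.0, dropped genes unless CPM exceeded 1 in 2 samples or more and scaled libraries with TMM in edgeR 3.16.5. The authors deposited RPKM values per gene and library, which were used here. Their 4 columns of fold change, mean level, p-value and FDR were not used.

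Groups came from the sample titles. RPKM were tested on log2(RPKM + 1) with limma 3.58.1 (R 4.3.3, lmFit and eBayes, two-sided), with Benjamini-Hochberg adjustment over all 14526 genes and no further filter. Integer reads behind the values were recovered for 100% of genes from the steps between RPKM values (tolerance 0.02 reads). A factor shared by all 8 counts of a gene would not be seen. Fits and read recovery were tested on simulated data. Ratios within a library were compared with exact permutation tests of 4 against 4 (SciPy 1.17.1, Python 3.11.15), two-sided. Gene positions and GC content came from GENCODE transcripts on hg38, with a GC value for 97.0% of genes, and the GC and length correction used splines with 5 degrees of freedom.

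The variant genes and all lists were chosen with earlier results of these data known, so their directions are no independent evidence. Genes were named as follows. The variants described were named. In the lists of other variants, H3.3 deposition, H2A.Z exchange, general chaperones and histone mRNA processing, called genes with an absolute log2 fold change of at least 0.3 were named, or the largest 2 where fewer existed. Among replication-dependent genes the 4 highest and the 2 largest changes in each direction were named. Other genes were named after their values were seen, to account for small counts. Alternatives were a pseudocount of 0.1, no TMM factors, a mean RPKM of at least 1, the replicate number as a block, the GC and length correction with and without the block, voom on recovered reads, and leaving out each library. H3F3A was not analysed here, and some planned results are not reported here.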

Additional observations from a re-analysis of the deposited data

How the results depend on the processing

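Across 15 alternative fits, 5 variant genes (H1FX, H2AFY, H2AFY2, H2AFJ and H3F3B) kept their direction and stayed past the threshold, with H2AFY2 between -0.45 and -0.32. The share of all genes that did so is not given here. The number of variants called higher was 2 without the TMM factors (H2AFX and H2AFV), and 2 with the GC and length correction, with or without the block (H2AFX and H2AFZ). Leaving out 1 library gave 0 to 1 called higher and 5 to 6 called lower. H2AFZ lay at 0.00792 without the TMM factors (adjusted p = 0.858) and did not pass the test, under a scaling that moved the median of all genes from 0.00772 to 0.113. It reversed to 0.104 with the GC and length correction (adjusted p = 0.00534) and to 0.104 with that correction and the replicate block (adjusted p = 0.0223), and it missed the threshold with a pseudocount of 0.1 (adjusted p = 0.0524). The log2 ratio of H2AFZ to H2AFV reversed to 0.0961 with the GC and length correction. That of H2AFY to H2AFY2 was 0.0962 (p = 0.0286, exact permutation test, not adjusted over the 2 ratios). The cause was not tested.

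With 1 library left out the exact test cannot go below p = 0.0571, so a ratio then misses the threshold by construction. The ratios lay between -0.139 and -0.115 for H2AFZ to H2AFV and between 0.0184 and 0.0517 for H2AFY to H2AFY2. Over the table, 6253 genes were called higher and 3355 lower without the TMM factors (65.1% of calls higher, against 50.2%). The split of calls moved by less with voom, at 4865 and 4759.

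The labels number the replicates 1 to 4 in either group. Same-numbered replicates deviated from their group means with correlations of 0.380, 0.327, 0.173 and -0.160, so the numbers were not taken to pair the samples. With the replicate block, 4885 genes were higher and 4894 lower, and 1 variant was higher and 5 lower, H2AFZ being the one that lost its call (adjusted p = 0.0601). Control replicates 3 and 4 correlated best with SB-treated replicate 2, not with their own numbers. The planned ratio of H3F3A to H3F3B was not run.

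Depth limits H2AFJ most, which rested on 217 to 309 reads per library.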
